A study of Mus musculus with 3 samples.

Results

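The genes described here are 9 genes of folate uptake and folate-dependent one-carbon metabolism: the folate receptor Folr1, the carriers Slc19a1 and Slc46a1, and the enzymes Tyms, Mthfd1, Mthfd2, Shmt1, Shmt2 and Aldh1l1. They were chosen by symbol because kidney injury in this experiment was induced with folic acid (FA), and they are 9 of the 27998 genes in the count tables. Whole kidneys of FA-treated mice were taken at day 14 and their cells were profiled by single-cell RNA sequencing (scRNA-seq). The mice were 6 to 8 weeks old according to the labels. Aoah-/- mice, which lack acyloxyacyl hydrolase in every cell, gave 2 libraries (replicates 2 and 3) and wild-type (WT) mice gave 1 library (replicate 3). All 3 libraries came from FA-treated kidneys, so a response to FA itself cannot be read from these data.

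Folate is a vitamin that carries one-carbon units. The kidney filters it at the glomerulus, and proximal tubular epithelial cells (PTECs) reclaim it through folate receptor 1 at their brush border. Inside the cell, serine is the main donor of one-carbon units, mitochondrial and cytosolic enzymes pass these units between folate forms, and the units end in thymidylate, purines, methionine or carbon dioxide. A high dose of FA injures the tubule and is widely used as a model of acute injury followed by fibrosis.

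The genes lie apart from each other in GENCODE M21 (GRCm38, which the submitters name as mm10). Folr1 is at chr7:101858331-101870788 (minus strand), Slc19a1 at chr10:77032241-77061002 (plus), Slc46a1 at chr11:78465697-78472059 (plus), Tyms at chr5:30058202-30073617 (minus) and Mthfd1 at chr12:76255298-76319803 (plus). Mthfd2 is at chr6:83305691-83325908 (minus), Shmt1 at chr11:60788104-60811718 (minus), Shmt2 at chr10:127517123-127522444 (minus) and Aldh1l1 at chr6:90486427-90600203 (plus). Folr1 overlaps Anapc15, Slc19a1 overlaps Col18a1, Shmt1 overlaps Smcr8 and Shmt2 overlaps Ndufa4l2, each on the opposite strand. Aldh1l1 overlaps the noncoding Gm45901 on its own strand and Gm15756 on the other, and how strand was handled in counting is not given in the sources used here.

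After cells with fewer than 200 detected genes or over 50% mitochondrial reads were left out, 18202 to 21368 cells per library remained, with 124637328 to 131937609 unique molecular identifiers (UMIs, 1 per captured RNA molecule) in each library. A median cell held 3357 to 3859 UMIs. Over all barcodes, before this filter, Aoah was at 6.06 and 5.68 UMIs per 1000000 UMIs in the Aoah-/- libraries and at 15.3 in the WT library. The knockout libraries were therefore lower but not at 0, and where the deletion lies relative to the sequenced 3′ ends is not given in the sources used here. Cell classes were named "-like" from marker genes after clustering that left out the 9 genes and the wider folate list. PTEC-like cells made up 37.7% and 24.0% of the cells in Aoah-/- replicates 2 and 3 and 51.4% in the WT library. The part of this make-up in the Aoah difference was not tested. The libraries differed in shape: Aoah-/- replicate 3 held no cell under 1672 UMIs, while the lowest total was 500 in the other libraries. Any pair of libraries shared 109 to 117 cell barcodes. Levels below are UMIs per 1000000 UMIs of a class (CPM), each from summed counts of 1 library. Means and SDs run over all 3 libraries, both genotypes together, and classes are compared as a description, since clustering defined them.

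Folr1, the receptor that binds folate for endocytosis, was concentrated in PTEC-like cells. Its level there was 390 CPM in Aoah-/- replicate 2, 405 in Aoah-/- replicate 3 and 408 in the WT library (mean 401 ± 9.30, SD, n = 3). The libraries lay close together, and every other named class lay below them. PTEC-like cells held 82.9% of all Folr1 UMIs and were 22137 of 59262 cells. Their median depths were 3091, 6421 and 4860 UMIs, against 3357, 3678 and 3859 over all cells (Aoah-/- replicates 2 and 3, WT). ALOH-, DCT-, CD-PC- and CD-IC-like cells (ascending loop of Henle, distal convoluted tubule, and principal and intercalated cells of the collecting duct), summed as other tubular cells, were lower by a log2 ratio of 3.32 ± 0.28 (SD, n = 3), a 10.0-fold difference in the same direction in every library. Erythroid-like cells came next, at 194 to 232 CPM.

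Outside the proximal tubule, low Folr1 levels came with low levels of other proximal transcripts, and the proportion was often near that in PTEC-like cells. Per 1000 UMIs of 7 abundant proximal genes (among them Miox, Pck1, Slc34a1 and Lrp2), PTEC-like cells held 24.5, 26.6 and 26.6 Folr1 UMIs in Aoah-/- replicates 2 and 3 and the WT library. T lymphocyte-like cells, which should lack Folr1, held 25.4, 25.9 and 31.3. ALOH-like cells held 25.7, 25.3 and 25.5, and Erythroid-like cells 23.1, 27.5 and 27.7. Over the 15 other named classes with cells in every library the ratio ran from 13.9 (Granulocyte-like cells of the WT library) to 31.8, and in PTEC-like cells that fitted no segment it was 14.2, 12.7 and 15.4. The part of free RNA, and of doublets, which were kept, in the levels outside PTEC-like cells was not tested. After each cell was thinned to 1000 UMIs, 30.2% ± 0.38 (SD, n = 3) of PTEC-like cells had a Folr1 UMI, against 2.18% of T lymphocyte-like and 4.65% of other tubular cells. Thinning left out 1907, 0 and 1789 shallower PTEC-like cells in Aoah-/- replicates 2 and 3 and the WT library. Without thinning the share in PTEC-like cells was 68.2% and that in T lymphocyte-like cells 6.95%, at median depths of 3091 to 6421 and 2478 to 2969.5 UMIs.

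**Figure D1:**
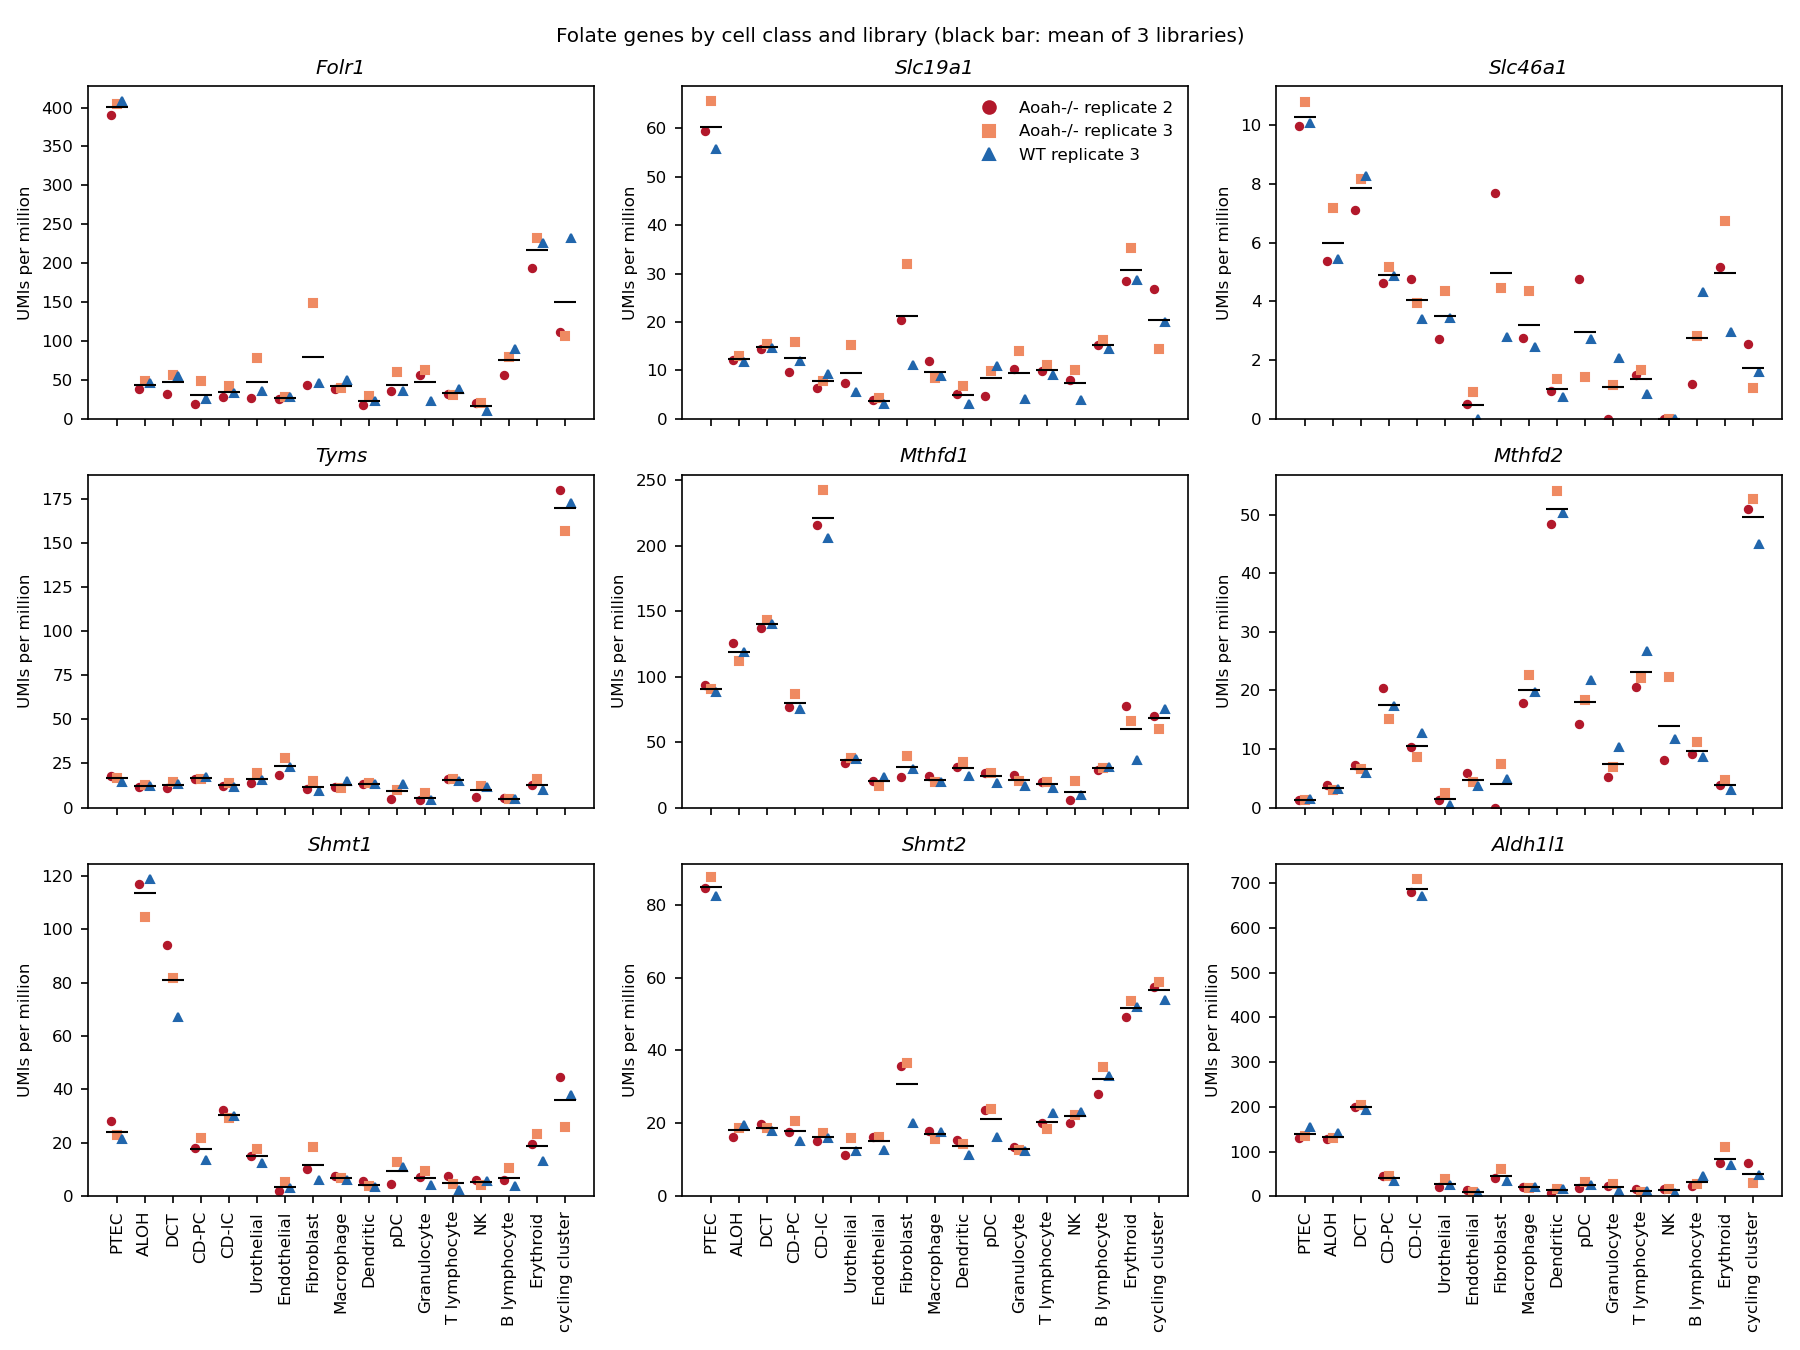
Levels in CPM of the 9 genes (vertical axes, linear, starting at 0) in 16 named classes and 1 unnamed cycling cluster (horizontal axis). Each point is 1 library and the black bar is the mean of the 3 libraries. Folr1, Slc19a1 and Shmt2 peaked in PTEC-like cells, Aldh1l1 and Mthfd1 in CD-IC-like cells, Shmt1 in ALOH-like cells and Tyms in the cycling cluster. Mthfd2 was highest in Dendritic-like cells and the cycling cluster, with overlapping ranges.

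Folr1 was also measured in a cluster that did not pass the rule for a class name. This cluster of 618 cells was led by Ccl2, Vcam1, C3, Cp, Cxcl1 and Sox9, and a list of 12 tubular injury genes reached 22795, 16370 and 18545 CPM in it (Aoah-/- replicates 2 and 3, WT), against 1164, 1031 and 453 in PTEC-like cells. The 7 proximal genes together stood at 3580, 3803 and 3961 CPM, far below the 15959, 15237 and 15330 of PTEC-like cells. Folr1 stood at 277, 249 and 329 CPM. Per 1000 UMIs of the proximal genes this was 77.4, 65.4 and 83.1 Folr1 UMIs, above the PTEC-like ratio in all 3 libraries. Slc19a1 stood at 49.7, 52.9 and 48.1 CPM in these cells, against 59.5, 65.6 and 55.8 CPM in PTEC-like cells. Both Slc19a1 and Folr1 thus lay below their PTEC-like levels in each library. A second unnamed cluster, led by Lcn2, Clu and Krt18, held the injury genes at 30094 to 34276 CPM but was placed nearest to ALOH-like cells by its markers, and Shmt1 stood there at 66.0, 66.0 and 62.3 CPM.

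Slc19a1, the reduced folate carrier, was highest in PTEC-like cells at 59.5 and 65.6 CPM in the Aoah-/- libraries and 55.8 CPM in the WT library. No other named class reached these values. PTEC-like cells exceeded other tubular cells by a log2 ratio of 2.37 ± 0.12 (SD, n = 3). Per 1000 UMIs of the 7 proximal genes, PTEC-like cells held 3.73, 4.31 and 3.64 Slc19a1 UMIs, and CD-PC-like cells held 10.2, 9.77 and 9.65. The ratio thus differed between these classes in every library, and the part of the low levels in CD-PC-like (9.74 to 15.9 CPM) and DCT-like cells (14.4 to 15.4 CPM) that came from free RNA was not tested.

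Slc46a1, the proton-coupled folate transporter, was scarce. PTEC-like cells held 9.98, 10.8 and 10.1 CPM in Aoah-/- replicates 2 and 3 and the WT library, followed by DCT-like cells at 7.10, 8.17 and 8.28 CPM. The ranges of these classes did not overlap, and PTEC-like cells exceeded other tubular cells by a log2 ratio of 0.82 ± 0.05 (SD, n = 3). After thinning, 0.88% of PTEC-like, 0.68% of other tubular and 0.08% of T lymphocyte-like cells had a UMI of Slc46a1, and in 2 small classes, Fibroblast-like (1.09%) and pDC-like cells (1.21%), the share was higher than in PTEC-like cells. Counts this low do not resolve single cells.

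**Figure D2:**
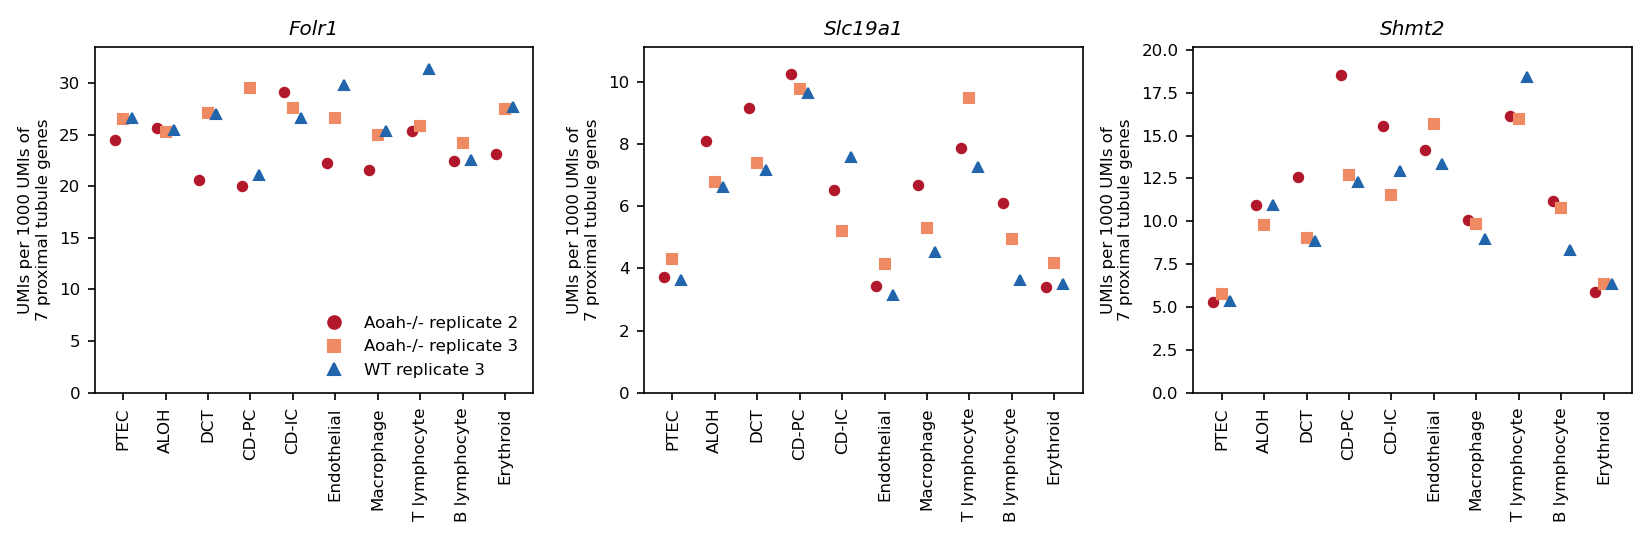
UMIs of Folr1, Slc19a1 and Shmt2 per 1000 UMIs of 7 proximal tubule genes in 10 classes (linear axes starting at 0); each point is 1 library. Folr1 reached at most 31.3 in the classes shown, against 24.5 to 26.6 in PTEC-like cells, whereas Slc19a1 and Shmt2 had higher ratios in most classes outside PTEC-like cells than in them.

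The enzymes that handle folate inside the cell fell into separate places along the nephron. Shmt2 had the largest excess in PTEC-like cells among them, while Aldh1l1, Mthfd1 and Shmt1 were lower in PTEC-like cells than in other tubular cells in all 3 libraries. Over the 9 genes, 5 were higher and 4 were lower in PTEC-like than in other tubular cells in every library, where 28.3% of all genes tested were higher and 57.4% lower.

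Aldh1l1, the cytosolic enzyme that oxidises the formyl unit of 10-formyl-tetrahydrofolate to carbon dioxide and returns free tetrahydrofolate, peaked in CD-IC-like cells. Its level was 679 and 708 CPM in the Aoah-/- libraries and 671 CPM in the WT library (mean 686 ± 19.6, SD, n = 3). DCT-like cells followed at 200, 203 and 194 CPM, and PTEC-like (130 to 154) and ALOH-like cells (129 to 142) came next, with overlapping ranges. The intercalated cells fell into a cluster led by Slc26a4, the pendrin of type B cells, and a cluster led by Slc4a1 and Aqp6, genes of type A cells. Aldh1l1 reached 755, 770 and 715 CPM in the former and 567, 615 and 638 CPM in the latter (Aoah-/- replicates 2 and 3, WT), and the former was higher in each library. CD-IC-like cells made up 1362 of 59262 cells and held 24.6% of all Aldh1l1 UMIs. These cells were deeper, at medians of 15061, 5423 and 14701 UMIs against 3357, 3678 and 3859 over all cells (Aoah-/- replicates 2 and 3, WT). After thinning, 42.0% of CD-IC-like cells had a UMI, against 12.3% of PTEC-like and 1.21% of T lymphocyte-like cells.

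Mthfd1, the trifunctional cytosolic enzyme that joins formate to tetrahydrofolate and interconverts methylene, methenyl and formyl forms, followed a related order. CD-IC-like cells held 215, 242 and 206 CPM (Aoah-/- replicates 2 and 3, WT), DCT-like cells 137, 143 and 140, ALOH-like cells 126, 112 and 119, and PTEC-like cells 93.3, 90.9 and 87.9. The ranges of these 4 classes did not overlap. PTEC-like cells stood below other tubular cells by a log2 ratio of -0.74 ± 0.05 (SD, n = 3).

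Shmt1 and Shmt2 are the cytosolic and the mitochondrial serine hydroxymethyltransferases, which move a carbon from serine to tetrahydrofolate and yield glycine. Shmt1 was highest in ALOH-like cells, at 117 and 104 CPM in the Aoah-/- libraries and 119 CPM in the WT library, and DCT-like cells followed at 93.9, 81.7 and 67.2 CPM. PTEC-like cells held only 28.2, 22.9 and 21.6 CPM, a log2 ratio of -1.48 ± 0.07 (SD, n = 3) to other tubular cells. Shmt2 showed the opposite order. It stood at 84.5, 87.5 and 82.3 CPM in PTEC-like cells, and its log2 ratio to other tubular cells was 2.27 ± 0.04 (SD, n = 3). The cytosolic and the mitochondrial form were thus measured at their highest levels in different segments of the same nephron, in every library.

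**Figure D3:**
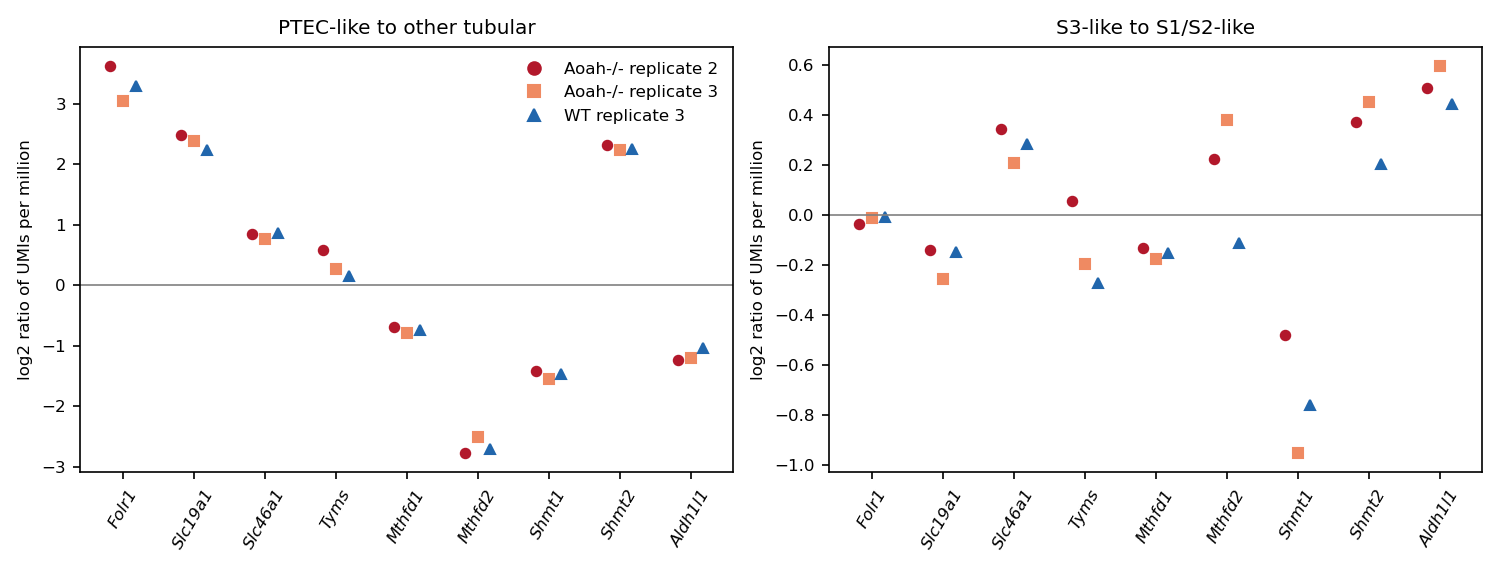
Log2 ratios of CPM for the 9 genes: PTEC-like to other tubular cells (left) and S3-like to S1/S2-like cells (right), with 1 point per library and a grey line at 0. Folr1, Slc19a1 and Shmt2 lay above 2 in the left plot and Mthfd2 below -2; in the right plot Slc46a1, Shmt2 and Aldh1l1 lay above 0 in every library.

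Within the proximal tubule, cells could be placed by markers in the convoluted part (S1/S2-like, 9300 cells) or the straight part (S3-like, 4829 cells), while 8008 PTEC-like cells fitted neither. The S3-like cells also carried the highest Slc22a6, and among their subclusters only 1, with 95 cells, expressed Cyp7b1, so the S3 label rests on part of its usual markers. The S1/S2-like cells were mixed too. In 1 of their subclusters, of 3524 cells, the S3 markers summed to 1190 CPM, against 1231 CPM in an S3-like subcluster of 2503 cells. The S1/S2 markers stood at 7537 and 5424 CPM in these. Aldh1l1 was 156 and 169 CPM in S3-like and 110 and 112 CPM in S1/S2-like cells of the Aoah-/- libraries, and 180 and 132 CPM in those of the WT library, a log2 ratio of 0.52 ± 0.07 (SD, n = 3). Shmt2 (0.34 ± 0.13) and Slc46a1 (0.28 ± 0.07) were higher in S3-like cells in all 3 libraries too. Shmt1 was lower there, at 28.4 CPM in S1/S2-like cells on average and a log2 ratio of -0.73 ± 0.24, as were Slc19a1 (-0.18 ± 0.07) and Mthfd1 (-0.15 ± 0.02). Folr1 was level between these groups: 417, 419 and 440 CPM in S1/S2-like and 407, 416 and 438 CPM in S3-like cells. Its log2 ratio was -0.02 ± 0.02, and was 0.10 when cells over 20% mitochondrial UMIs were also left out. Tyms and Mthfd2 had no common direction among the libraries. Of all genes tested in PTEC-like cells, 19.8% were higher and 55.6% lower in S3-like cells in every library.

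Tyms, thymidylate synthase, makes the thymidine nucleotide needed for DNA replication, and Mthfd2 is the mitochondrial methylenetetrahydrofolate dehydrogenase of proliferating and activated cells. Both stood high in an unnamed cluster of 295 cells led by Hist1h1b, Mki67, Top2a, Ube2c and Cenpf, genes of dividing cells. Tyms reached 180, 157 and 173 CPM there (Aoah-/- replicates 2 and 3, WT), while in the named classes it lay between 4.14 and 28.1 CPM in every library, leaving out Mesothelial-like cells, of which nearly all came from the WT library. Endothelial-like cells were the highest of these named classes, at 18.6 to 28.1 CPM. PTEC-like cells held 18.1, 16.9 and 14.5 CPM, below them without overlap. After thinning, 17.4% of the cells in this cluster had a Tyms UMI, against 1.63% of PTEC-like, 1.63% of T lymphocyte-like, 0.46% of B lymphocyte-like and 0.36% of Granulocyte-like cells. The T lymphocyte-like cells hold dividing cells. B lymphocyte-like (4.78 to 5.15 CPM) and Granulocyte-like cells (4.14 to 8.16 CPM) lay below PTEC-like cells without overlap. Mthfd2 was 51.1, 52.6 and 45.0 CPM in the same cluster.

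Mthfd2 differed from Tyms in reaching as high a level in a class that was not defined by division. Dendritic-like cells held 48.4 and 54.1 CPM in the Aoah-/- libraries and 50.3 CPM in the WT library. This class was 1 cluster, whose best dendritic markers averaged a log2 excess over the median cluster of 4.31, against 4.03 for macrophage markers. T lymphocyte-like cells (20.6, 22.1 and 26.7 CPM) and Macrophage-like cells (17.9, 22.6 and 19.7 CPM) came next with overlapping ranges. Among macrophage clusters, the one led by Lyz2, Cybb, Ly6c2 and Il1b was highest at 37.8, 38.4 and 26.3 CPM. Of these genes Ly6c2 marks recruited monocytes, while Lyz2 and Il1b also led a macrophage cluster with C1qa. PTEC-like cells were lower than other tubular cells by a log2 ratio of -2.67 ± 0.14 (SD, n = 3), and 0.17% of them had a UMI after thinning, under the 2.20% of T lymphocyte-like cells.

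The promoters of this pair are shown because both genes were high in dividing cells. Each runs over the 250 bases before the RefSeq start (GRCm38.p6), 5′ to 3′ on the gene's strand, with GC boxes (GGGCGG) and CCAAT boxes (CCAAT), on either strand, in capitals. Promoter sequences were matched for 8 of the 9 genes, all but Folr1.
Tyms (chr5:30073626-30073875, minus strand): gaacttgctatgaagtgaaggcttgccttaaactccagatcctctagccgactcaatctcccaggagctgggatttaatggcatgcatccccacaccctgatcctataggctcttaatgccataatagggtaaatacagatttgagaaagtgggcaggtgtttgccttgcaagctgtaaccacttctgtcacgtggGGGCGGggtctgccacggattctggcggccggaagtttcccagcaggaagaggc
Mthfd2 (chr6:83317605-83317854, minus strand): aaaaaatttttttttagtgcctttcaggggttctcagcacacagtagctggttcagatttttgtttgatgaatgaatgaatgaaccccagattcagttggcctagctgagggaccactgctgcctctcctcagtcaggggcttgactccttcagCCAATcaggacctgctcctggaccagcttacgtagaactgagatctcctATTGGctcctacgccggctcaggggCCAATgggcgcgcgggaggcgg
The Tyms window held 1 GC box, a motif found in 32.7% of all 32851 promoter windows of this length. The Mthfd2 window held 3 CCAAT boxes, of which 1 lay on the other strand, and 33.8% of all windows held at least 1. The E2F words TTTCGCGC, TTTGGCGC, TTTCCCGC and TTTGCCGC, present in 1.86% of windows, were not in either window.

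Within some classes, Tyms followed a list of 12 cell cycle genes (Mki67, Top2a, Cdk1 and others) that did not include it. Over all named cells, those with at least 2 UMIs of the list held 33.0, 29.1 and 36.7 CPM of Tyms (Aoah-/- replicates 2 and 3, WT) and the remaining cells 13.9, 14.9 and 13.3, a log2 ratio of 1.23 ± 0.25 (SD, n = 3). In Macrophage-like cells the ratio was 2.61 ± 0.19, and in Dendritic-like cells 3.15 ± 1.20. In PTEC-like cells it was 0.17 ± 0.65, with 200 cells over the limit, and its sign differed among the libraries. Between classes, Tyms and the list had different orders. The list averaged 14.5 CPM in Endothelial-like cells, where Tyms averaged 23.3 CPM. In Macrophage- and Dendritic-like cells the list averaged 219 and 251 CPM, and Tyms 12.6 and 13.5 CPM. Cells over the limit were deeper, with a median of 6810 to 8653 UMIs against 3118.5 to 3801 in the others, and 2 UMIs are reached more easily in a deep cell. Mthfd2 rose with the list in Macrophage-like cells (1.07 ± 0.11) and less so in Dendritic-like cells (0.25 ± 0.16), in which cells under the limit still held 46.6, 50.6 and 49.6 CPM.

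**Figure D4:**
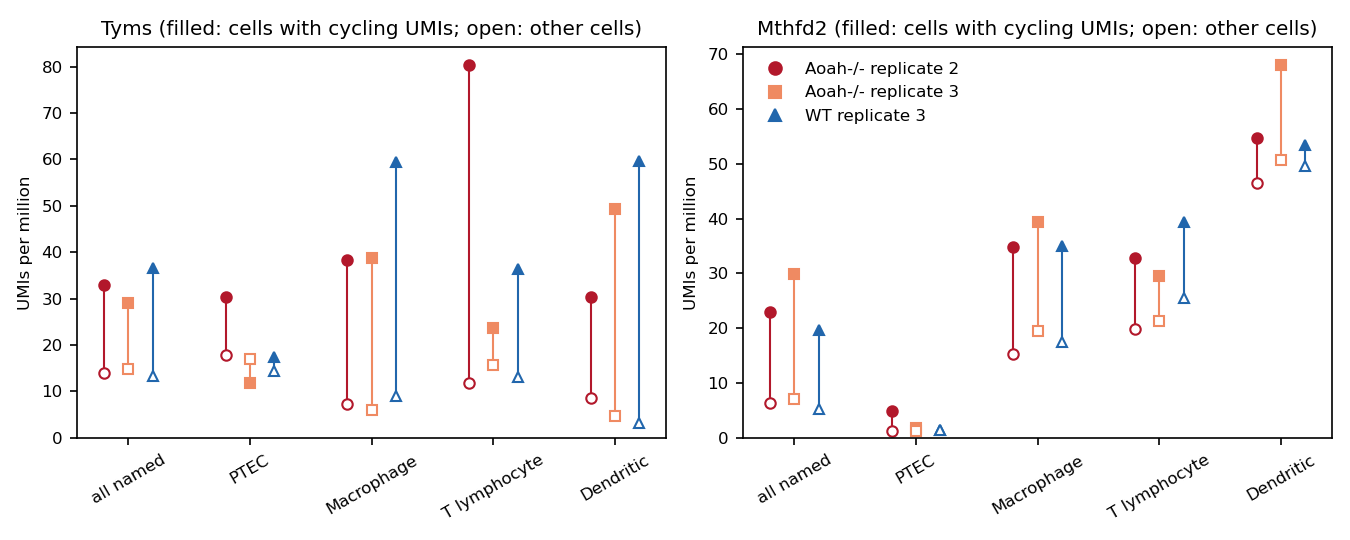
Levels in CPM of Tyms (left) and Mthfd2 (right) in cells with at least 2 UMIs of 12 cell cycle genes (filled points) and in the remaining cells (open points), per library, joined by a line, on linear axes starting at 0. Tyms was higher in the filled points of all libraries over all named cells and in Macrophage-, T lymphocyte- and Dendritic-like cells, but not in all libraries in PTEC-like cells; Mthfd2 was high in Dendritic-like cells of both kinds.

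Across 18 classes and proximal segments, the genes whose pattern was most like that of each gene were named by Pearson's r of log2(CPM + 1), among 10376 genes that reached 20 CPM in some class. These values describe profiles that share libraries and class sizes, and carry no test. For Folr1 the nearest were Kcnj15 (r = 1.00), Pdzk1 and Hykk, and for Slc19a1 they were Slc17a1 (r = 0.97), Glyctk and A1cf. Pex11a, Fahd2a and Macrod1 were nearest to Slc46a1, and Tprkb, Galnt11 and Slco1a6 to Shmt2 (r = 0.97 for each). Aldh1l1 was nearest to Atp6v0a4 (r = 0.95), a subunit of the proton pump of intercalated cells, followed by Glod5 and Sdhd. Mthfd1 was nearest to the respiratory chain genes Sdhd (r = 0.97), Cyc1 and Uqcrb, and Shmt1 to genes that included Baiap2l2 (r = 0.95) and Shank2. Mthfd2 was nearest to Ubl3 (r = 0.88), Cdc42se2 and Sh3bp1. For Tyms, low in all of these classes, the highest value was 0.79 (Fubp3), followed by Spryd7 and Spred2.

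Whether loss of Aoah altered these genes was asked in PTEC-like cells, the class through which folate is reclaimed. No change was detected. With edgeR's quasi-likelihood test on summed counts, 2 Aoah-/- libraries against 1 WT library, 0 of the 9 genes passed an adjusted p of 0.05, and DESeq2 also called 0. At an unadjusted p under 0.05 there were 2 of 9, against a background of 25.9% of all genes tested, and 91 of 14128 genes (0.644%) passed after adjustment. Of the 9 genes, 5 were above the WT library in both Aoah-/- libraries (41.8% of all genes tested) and 3 were below it in both (40.1%). The WT group is 1 library, so its spread was taken from the Aoah-/- libraries and from the other genes of the class. Whether a library stands for its genotype cannot be told apart from a difference between kidneys.

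Aldh1l1 was 130 and 135 CPM in the Aoah-/- libraries and 154 CPM in the WT library. The log2 difference was -0.23 (SE 0.07, edgeR adjusted p = 0.152), with a 95% interval of -0.42 to -0.04. Tyms differed by 0.27 (SE 0.10, edgeR adjusted p = 0.185) and had the largest difference of the 9 genes. Its 95% interval was 0.007 to 0.54, and intervals here are not adjusted for the number of genes. In S1/S2-like and S3-like cells Tyms differed by 0.36 and 0.55 (edgeR adjusted p = 0.114 and 0.171). Folr1 differed by -0.04, with a 95% interval of -0.22 to 0.14. For Shmt2 the interval was -0.14 to 0.25 around 0.06. For Mthfd2, which was near 0 UMIs in most PTEC-like cells, it was wide, from -0.83 to 0.50. In the other fitted classes and segments the count of called genes was also 0: of 122 tests over 15 classes and segments, none passed with edgeR or DESeq2, and 9 had an unadjusted p under 0.05 (7.38%, against 11.1% of the tests of all genes). The share of all genes called was 1.33% in DCT-like, 1.04% in CD-PC-like, 2.3% in Granulocyte-like, 1.92% in T lymphocyte-like and 0.725% in NK-like cells. It was 0.121% in Endothelial-like, 0.28% in B lymphocyte-like and 0.0511% in Erythroid-like cells, and with edgeR 0 genes were called in Urothelial- and Macrophage-like cells (604 and 290 at an unadjusted p under 0.05, and 18 and 10 called with DESeq2).

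**Figure D5:**
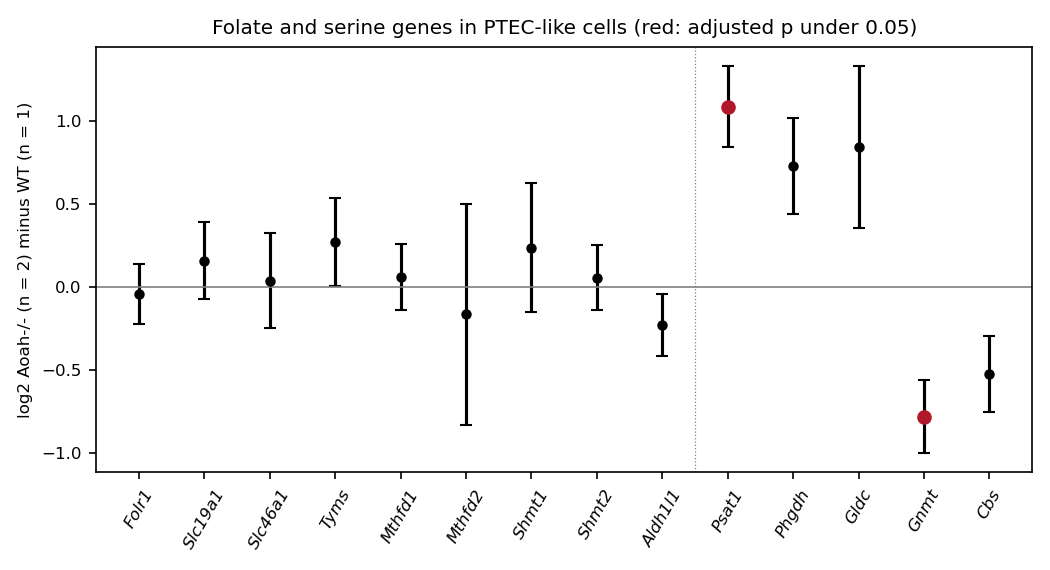
Log2 difference between Aoah-/- (n = 2 libraries) and WT (n = 1) in PTEC-like cells for the 9 genes (left of the dotted line) and 5 genes of serine, glycine and methionine metabolism (right); points are edgeR estimates with 95% intervals, red where the adjusted p was under 0.05. The 9 genes lay between -0.23 and 0.27 and none was red; Psat1 was above 1 and Gnmt below -0.5.

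The wider folate network was described with a list of 39 further genes, of which 37 passed the filter on low counts in PTEC-like cells. In these cells 1 was called higher and 1 lower in Aoah-/- libraries, beside 0.644% of all genes called. The median log2 difference over the list was -0.09, against 0.01 over all genes tested. At an unadjusted edgeR p under 0.05 there were 19 of 37, against 25.9% of all genes tested. Of the 37, 21 were below the WT library in both Aoah-/- libraries (40.1% of all genes tested) and 11 above it in both (41.8%). The gene called higher was Psat1, phosphoserine aminotransferase, which catalyses a step of serine synthesis from glycolysis. It was 30.3 and 29.1 CPM in the Aoah-/- libraries and 14.0 CPM in the WT library, a log2 difference of 1.09 (SE 0.09, edgeR adjusted p = 0.0451). Gnmt, glycine N-methyltransferase, which consumes S-adenosylmethionine, fell: it was 16.2 and 16.4 CPM in the Aoah-/- libraries and 27.9 CPM in the WT library (log2 difference -0.78, SE 0.08, edgeR adjusted p = 0.0492). Both p-values lay close to the threshold. Psat1 missed it at a finer clustering (adjusted p = 0.0506), and Gnmt missed it in 4 of 9 alternatives.

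The same genes were then followed in the segments, where further list members were called, chosen here after their values were seen. In S1/S2-like cells, Psat1 was 39.2 and 39.4 CPM in the Aoah-/- libraries and 18.2 in the WT library (log2 difference 1.15, SE 0.09, edgeR adjusted p = 0.00584), and this call held in all 9 alternatives. Phgdh, the first enzyme of serine synthesis, was 16.6, 16.9 and 10.2 CPM (log2 difference 0.75, edgeR adjusted p = 0.0249), but the call was lost in 4 of 9 alternatives. Gnmt (edgeR adjusted p = 0.0195) and Cbs, cystathionine beta-synthase (53.2, 58.9 and 83.4 CPM, edgeR adjusted p = 0.0360), fell in S1/S2-like cells, calls that 2 and 1 of the 9 alternatives did not make. In S3-like cells Psat1 rose by 0.89 and Gldc, the glycine-decarboxylating subunit of the glycine cleavage system, by 1.35 (34.1, 24.4 and 11.6 CPM, edgeR adjusted p = 0.0205), but 5 of 9 alternatives lost the Psat1 call and 3 of 9 the Gldc call. In S1/S2-like cells 534 of 13496 genes (3.96%) were called, and in S3-like cells 191 of 12140 (1.57%). The injury gene list moved with the genotype in the same cells: its summed level was 1532 and 1358 CPM in Aoah-/- and 640 CPM in WT S1/S2-like cells. The make-up of the class differed as well. Its S3 markers summed to 441 and 616 CPM in Aoah-/- and 981 CPM in WT cells. The largest S1/S2-like subcluster gave 1871 of 3298, 1310 of 2493 and 1023 of 3509 cells (Aoah-/- replicates 2 and 3, WT). The part of injury genes and of cell make-up in these differences was not tested.

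By group in PTEC-like cells, serine synthesis had 1 of 3 genes called higher, and the methionine cycle had 1 of 9 called lower, beside 0.644% of all genes called. Glycine cleavage, choline-derived one-carbon units, purine synthesis, folate interconversion and folate storage had none called with edgeR; DESeq2, which called 2.9% of the genes it tested, added Gldc (higher) and Cbs (lower). The summed level of the 5 genes of choline-derived units was 612 and 617 CPM in the Aoah-/- libraries and 719 CPM in the WT library. The 12 list genes with the highest level in any class were Mat2a, Pipox, Aldh7a1, Gcsh, Sardh, Chdh, Bhmt2 and Cbs, all highest in PTEC-like cells, Dld in DCT-like, Paics in ALOH-like, Mthfs in Granulocyte-like and Mat2b in CD-IC-like cells. Mat2a, which makes S-adenosylmethionine, stood at 295, 359 and 369 CPM in PTEC-like cells (Aoah-/- replicates 2 and 3, WT), and Pipox, the peroxisomal sarcosine oxidase, at 217, 225 and 264 CPM. Bhmt2, which methylates homocysteine, had a mean of 83.3 ± 10.1 CPM (SD, n = 3). None of these 3 genes was called between genotypes in PTEC-like cells.

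Outside the proximal tubule few list genes were called, and they were again picked out after their values were seen. In ALOH-like cells Mat2a was 110 and 110 CPM in the Aoah-/- libraries and 204 CPM in the WT library (log2 difference -0.82, SE 0.12, edgeR adjusted p = 4.13e-06), and Cbs was lower as well (-1.12, edgeR adjusted p = 0.00437), at a background of 6.43% of genes called. The Mat2a call was lost without a filter on low counts, and the Cbs call in 4 of 9 alternatives. In CD-IC-like cells, where Aldh1l1 peaked, its mitochondrial relative Aldh1l2 was 53.8 and 48.5 CPM in the Aoah-/- libraries and 33.4 CPM in the WT library (log2 difference 0.64, SE 0.16, edgeR adjusted p = 0.0342), and Gldc was also called higher (1.78% of genes called). These calls were lost in 4 of 9 and 3 of 8 alternatives. Aldh1l2 reached 82.4, 79.2 and 73.6 CPM in the Slc26a4-led cluster (Aoah-/- replicates 2 and 3, WT), where the libraries lay closer together than in the whole class. This cluster gave 216 of 401, 405 of 678 and 112 of 283 CD-IC-like cells. The part of this make-up in the class difference was not tested.

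Folr2 and Izumo1r were also picked out after their values were seen. Folr2, the folate receptor of macrophages, gave the largest difference of the list, in Dendritic-like cells. It was 4.66 and 4.11 CPM in the Aoah-/- libraries and 138 CPM in the WT library (log2 difference -5.04, SE 0.22, edgeR adjusted p = 2.78e-11), with 1.15% of genes called in that class. Macrophage markers moved with it: a list of 13 such genes was at 4133 and 4351 CPM in the Aoah-/- and at 8558 CPM in the WT cells of this class. When the 10% of cells with the highest doublet scores were left out, the difference was -0.46 (edgeR adjusted p = 0.926). The part of macrophage RNA and of doublets in the Folr2 difference was not tested. In Macrophage-like cells Folr2 was 3.22, 2.17 and 7.52 CPM and was not called. The other receptor on the list, Izumo1r (folate receptor 4), was found in T lymphocyte-like cells at 42.8 and 54.1 CPM in the Aoah-/- libraries and 67.2 CPM in the WT library. Most of it lay in 1 cluster of these cells, which made up 30.5% and 37.4% of them in the Aoah-/- libraries and 54.7% in the WT library, and within that cluster it stood at 107, 126 and 111 CPM. The part of this make-up in the Izumo1r levels was not tested.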

How the data were processed

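Kidneys of FA-treated Aoah-/- mice (n = 2 libraries) and WT mice (n = 1) were profiled with droplet 3′ scRNA-seq. Nothing in the labels says which animals the libraries share, and the p-values cover these libraries only. The design leaves 1 residual degree of freedom, so edgeR took most of the spread of a gene from all genes of a class. The median total degrees of freedom were 4.91 in PTEC-like, 18.3 in Dendritic-like and 49.1 in ALOH-like cells. They reached 8810 in Granulocyte-like and 6208 in NK-like cells, the numbers of genes tested there. Small p-values thus rest largely on this shared spread. The deposited values were raw UMI counts per gene and cell, which the authors made with Cell Ranger (3.1.0 per the labels, 6.1.2 per the file headers) on mm10; STAR and Seurat 4.2.0 are also named in the submitters' processing notes. Nothing was normalised before deposit. The files held 158551992 to 167222984 UMIs per library.

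Barcodes under 200 genes or over 50% mitochondrial UMIs were dropped, and the cells left were clustered with scanpy 1.11.5 (2000 variable genes, 50 components, Leiden resolution 1) without the 9 genes and the wider folate list. A cluster was named from its 5 best markers of a fixed list. PTEC-like cells were clustered again, and a segment was named where its 5 best markers averaged a log2 excess of at least 0.5, a limit set after marker levels were seen. Doublets were kept, since Scrublet called 0 cells in 1 library. Counts were summed per library and class, expressed as CPM, and tested with edgeR 4.0.16 (quasi-likelihood, TMM scaling, genes with low counts left out; Benjamini-Hochberg adjustment over all genes of a class). DESeq2 1.42.0 was an alternative. The edgeR step was tested on simulated counts. Shares of cells came after thinning each cell to 1000 UMIs. Counting intervals cover counting error only. Low-count classes (fewer than 100 cells in a library) were not tested.

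The 9 genes, the lists and the tests were chosen with earlier results of these data known. Named genes were the 9 genes, list genes called in PTEC-like cells, the 12 list genes with the highest level in any class, the 3 most similar genes for each of the 9, Aoah and the 7 proximal genes; some names that this rule gives are not reported here. Further genes of the list are marked in the text as picked after values were seen. Other settings tried were stricter cell filters, equal lowest UMI totals, removal of high doublet scores, other clustering, other scaling, no filter on low counts, other thinning depths and omission of single libraries. GENCODE M21 gave positions, and RefSeq promoter sequences were used.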

Additional observations from a re-analysis of the deposited data

How the results depend on the processing

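None of the 9 genes was called in PTEC-like cells under any of 9 alternatives. In the other classes and segments, 1 call arose without a filter on low counts, of Tyms in S3-like cells (log2 difference 0.53, edgeR adjusted p = 0.0379). In that segment and setting 996 of 17110 genes were called. No call of the 9 genes arose elsewhere. The number of all genes called in PTEC-like cells, 91, was less stable: 60 with at least 500 genes per cell, 164 with the same lowest UMI total, 442 without the highest doublet scores, 8 at Leiden resolution 2, 229 with 30 components, 443 with DESeq2 and 1147 without a filter on low counts. The cause was not tested. Psat1 in PTEC-like cells had adjusted p-values of 4.51e-07 to 0.0506 over the alternatives and Gnmt of 0.00203 to 0.0724. The count of genes above other tubular cells stayed at 5 under every alternative and with any library left out. The count above S1/S2-like cells in S3-like cells, 3, became 5 with at most 20% mitochondrial UMIs, and was 3 to 4 with a library left out; the Folr1 ratio turned to 0.10 under the same filter and to 0.016 as a mean of per-cell values. The Tyms ratio of 1.23 became 1.81 with at least 3 cycling UMIs, and lay between 1.11 and 1.35 with a library left out. The share of PTEC-like cells with a Folr1 UMI was 16.4% at 500 UMIs, 50.2% at 2000 UMIs and 68.2% without thinning, which follows from the depth kept. No paired analysis was possible, since the WT group is 1 library and the labels name no pairs. Leaving out an Aoah-/- library left 1 library per group and no residual degrees of freedom, so the edgeR results could not be refitted without one. With 1 WT library, differences between genotypes and between kidneys cannot be told apart. In single cells, Slc46a1, and Mthfd2 in tubular cells, were near the depth limit. In summed counts, CD-PC-like cells held Mthfd2 at 15.1 to 20.4 CPM.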

Other observations

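PTEC-like cells that fitted neither segment had median totals of 1020.5, 3008 and 1217 UMIs in Aoah-/- replicates 2 and 3 and the WT library. They mixed a shallow subcluster led by haemoglobin genes (5684 cells, median 898.5 UMIs), a deeper one (2222 cells, median 5646 UMIs) and 102 further cells. Together these cells held less Folr1 (240, 210 and 253 CPM) than S1/S2-like cells. Their Tyms level averaged 27.7 ± 3.9 CPM against 15.5 ± 1.91 (SD, n = 3). Deeper cells weigh more in summed counts, and the part of each subcluster in these levels was not tested.

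Izumo1r, a folate receptor family member of regulatory T cells that is known to lack folate binding, lay mostly in a T lymphocyte-like cluster of 1792 cells led by Icos, Cd3g, Tnfrsf4, Il7r and Ctla4. Mthfs, which returns 5-formyl-tetrahydrofolate to the active pool, was highest in Granulocyte-like cells at 125, 130 and 93.2 CPM.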
